A study of Mus musculus with 24 samples.

Results

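The cytosolic heat shock response was examined in mouse liver through 10 genes: Hspa1a, Hspa1b, Hspa8, Hsph1, Dnajb1, Dnaja1, Hsp90aa1, Hspb1, Bag3 and Cryab. They were taken by name for their function, as chaperones of the cytosol and their partners; the list was drawn up with earlier results of these data known. All 10 were found among the 21755 genes of the p16-3MR table. Only 5 of the 10 could be identified among the 12643 rows of the wild-type table, whose gene labels lack 9 lower-case letters, so that Hspa1b, Hsph1, Hspb1, Bag3 and Cryab there share a label with at least 1 other gene and were not analysed.

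The series holds 24 bulk liver RNA-seq libraries made by Smart-3SEQ, which reads the 3′ end of transcripts, in 8 groups of 3 mice. The 12 p16-3MR mice carry a BAC transgene whose p16Ink4a promoter drives the 3MR cassette, including a viral thymidine kinase, so that ganciclovir (GCV) kills cells in which the promoter is active. Treatment of these females and males began at 16 to 18 months of age, with GCV or vehicle (VEH, alkaline water) injected on 5 consecutive days each month, and the study's methods give collection at about 28 months. The 12 wild-type mice lack the transgene and received 3 months of such GCV or VEH cycles from 6 months of age, although the labels also call them age-matched. The labels give a GCV dose of 150 mg/kg, while the methods state a different one. Genotype, batch, age and length of treatment change together, so their effects cannot be told apart, and the p16-3MR and wild-type livers were never compared with a test.

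When unfolded protein builds up in the cytosol, heat shock factor 1 is released from chaperones, forms trimers and binds heat shock elements, which are inverted repeats of the letters GAA and TTC, upstream of chaperone genes. The induced proteins refold or clear the damaged protein and return the factor to its inactive state. In liver the same genes also follow the daily rhythms of feeding and body temperature.

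Heat shock elements were looked up in the promoters, since they are the sites through which this response is known to act. Promoter windows of RefSeq (GRCm38.p6; 250 bases before to 50 after a start) were matched for 7 of the 10 genes, in 11 windows; no window was matched for Hspa8, Hsp90aa1 or Cryab. The letters GAANNTTC or TTCNNGAA, searched on the given strand and each its own reverse complement, stood in the windows of 6 of these 7 genes, and 15.1% of all 32851 windows hold at least one of them (7.86% GAANNTTC and 8.52% TTCNNGAA). Members with several starts had more than 1 window, so the shares are not on the same footing and are a description. The 250 bases upstream of the starts of Hspa1a (chr17:34972157-34972406, minus strand), Hspa1b (chr17:34959239-34959488, minus strand) and Hspb1 (chr5:135887669-135887918, plus strand) are printed 5′ to 3′ with the matched letters in capitals, the first pair to show how alike the twin Hsp70 promoters are and the last for its motifs.
Hspa1a: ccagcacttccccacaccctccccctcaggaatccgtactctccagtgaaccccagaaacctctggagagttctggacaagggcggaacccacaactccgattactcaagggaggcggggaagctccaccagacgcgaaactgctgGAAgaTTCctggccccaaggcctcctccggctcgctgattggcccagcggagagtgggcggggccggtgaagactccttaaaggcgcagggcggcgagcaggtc
Hspa1b: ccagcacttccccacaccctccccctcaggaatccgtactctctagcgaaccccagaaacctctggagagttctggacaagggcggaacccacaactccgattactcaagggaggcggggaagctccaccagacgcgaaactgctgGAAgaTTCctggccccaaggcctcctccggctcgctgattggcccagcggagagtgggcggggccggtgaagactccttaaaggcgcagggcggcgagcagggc
Hspb1: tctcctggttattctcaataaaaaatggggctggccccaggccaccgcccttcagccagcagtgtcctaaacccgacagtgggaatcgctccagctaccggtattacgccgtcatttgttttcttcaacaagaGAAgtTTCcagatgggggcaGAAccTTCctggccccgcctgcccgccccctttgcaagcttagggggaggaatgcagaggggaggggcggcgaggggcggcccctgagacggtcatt
Hspa1a and Hspa1b were identical at 247 of the 250 upstream bases, and both held 1 match whose first base lies 104 bases before the start. Hspb1 held 2 matches, beginning 117 and 97 bases before its start. Hsph1, which has 2 starts in RefSeq, held 1 match beginning 33 bases before one start and 54 before the other and, further on, a run of 3 alternating units, GAA and TTC in either order with 2 bases between, a form found in 0.603% of all windows. That run begins at transcribed base 37 or 16, counted from the one start or the other. The stretches around these matches and around the match of Dnaja1 (chr4:40722334-40722361, plus strand) are shown because Hsph1 and Dnaja1 were among the closest pairs in level.
Hsph1, upstream match (chr5:149636352-149636379, minus strand): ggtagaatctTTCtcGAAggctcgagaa
Hsph1, 3 units (chr5:149636287-149636310, minus strand): atgctgcagaTTCtgGAAagTTCt
Dnaja1: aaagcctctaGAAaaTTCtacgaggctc
Dnaja1 held 1 match beginning 124 bases before its first start, and Bag3 held 1 beginning at transcribed base 43. Neither window of Dnajb1 held these exact letters, which says nothing on looser forms of the element.

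The genes fall into 4 roles. Hspa1a (chr17:34969190-34972156, minus strand, GRCm38) and Hspa1b (chr17:34956436-34959238, minus strand) encode the stress-inducible Hsp70, and Hspa8 (chr9:40800984-40810087, plus strand) its constitutive relative Hsc70. Hsp90aa1 (chr12:110690605-110702728, minus strand) encodes the inducible Hsp90. The partners of Hsp70 are the J-domain proteins Dnajb1 (chr8:83608193-83612653, plus strand) and Dnaja1 (chr4:40722150-40737149, plus strand), which deliver substrates, the nucleotide exchange factor Hsph1 (chr5:149614287-149636376, minus strand), also called Hsp110, and Bag3 (chr7:128523616-128546981, plus strand), which links Hsp70 to autophagy. Hspb1 (chr5:135887919-135889563, plus strand) and Cryab (chr9:50751325-50756636, plus strand) encode small heat shock proteins that hold unfolded protein without using ATP.

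The twin Hsp70 transcripts differ at their 3′ ends, where Smart-3SEQ reads. Of the 31-letter words of the Hspa1a transcript, 63.8% also occur in that of Hspa1b, and 67.5% the other way round, but in the last 300 bases of both the share was 0%. Dnaja1 overlaps Smu1 on the opposite strand by 608 bases that reach its 3′ end, Hspa1a overlaps Gm20481 on the opposite strand by 2225 bases, and Cryab overlaps Hspb2 on the opposite strand by 1030 bases. The sources used here do not say whether counting used the strand, so the values of these 3 genes may include reads of their partners. Only the overlap of Dnaja1 and Smu1 touches the last 300 bases of a member. On the same strand, Dnaja1 holds Mir207, Bag3 holds 2610306O10Rik, with 612 shared bases, and Hspa8 holds 3 small nucleolar RNA genes, Snord14c, Snord14d and Snord14e, also outside the last 300 bases.

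Summed counts ranged from 5005760 to 7160172 in the p16-3MR livers and from 3084517 to 5667904 in the wild-type livers. One library stood apart: in GCV-treated p16-3MR female 33, mitochondrially encoded transcripts took 64.0% of the counts and 13409 genes were detected, against 12.3% to 22.4% and 16804 to 18659 genes in the other 11. Levels are given as CPM, counts scaled to a common library size with TMM factors. The factor was 0.259 in female 33 and 0.850 to 1.80 in the other 11 p16-3MR livers. A small factor raises the CPM of a liver, so all levels of female 33, high or low, depend on this scaling. A count of 3 equalled 2.32 CPM in that liver and 0.293 to 0.578 CPM in the others, and 0.516 to 0.943 CPM in the wild-type livers. The biological coefficient of variation estimated by edgeR was 55.8% in the p16-3MR table and 16.6% in the wild-type table. The fold change of each member in p16-3MR females is therefore given with and without liver 33.

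The first question was whether GCV altered the chaperone genes in p16-3MR females. In 2 of the 3 GCV-treated females nearly the whole group was high, and in the third it was low. Female 31 exceeded the median of the 12 p16-3MR livers for 9 of the 10 genes and female 35 for 8, while female 33 did so for 1. Among the VEH-treated females, 27 exceeded the median for 9 genes, 28 for 1 and 29 for 2.

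Hsph1 showed the contrast most plainly. Its level was 100.2, 3.86 and 76.3 CPM in GCV-treated females 31, 33 and 35, against 47.2, 23.7 and 26.1 CPM in VEH-treated females 27, 28 and 29. Females 31 and 35 thus lay above all 3 VEH females and female 33, with 5 counts, below them. For Dnajb1 the GCV values were 28.3, 12.4 and 21.1 CPM and the VEH values 13.9, 9.12 and 11.7 CPM, so that only female 33 fell within the VEH range. Dnaja1 stood at 333.3, 52.5 and 288.6 CPM with GCV and at 179.1, 96.1 and 118.6 CPM with VEH.

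The abundant Hsc70 gene Hspa8 reached 1737, 787.8 and 1461 CPM with GCV and 950.6, 624.1 and 767.5 CPM with VEH, again with female 33 inside the VEH range. Bag3 was at 102.6, 52.5 and 115.6 CPM against 80.2, 27.6 and 55.2 CPM. Hsp90aa1 was at 440.3, 166.1 and 287.0 CPM against 288.9, 172.0 and 189.2 CPM, and here female 35 did not exceed VEH female 27. The groups overlapped for every one of the 10 genes when all livers were kept. The share of all genes whose groups overlap is not given here, so this count is a description.

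The inducible Hsp70 genes were scarce. Hspa1b was at 13.3, 0 and 6.71 CPM with GCV and 5.90, 3.76 and 3.40 CPM with VEH, the value of 0 in female 33 allowing up to 2.32 CPM. Hspa1a had between 2 and 7 counts in every female, which gave 0.964, 3.86 and 0.671 CPM with GCV and 0.268, 1.01 and 0.378 CPM with VEH. The 3.86 CPM of female 33 rest on 5 counts. Hspb1 was at 5.98, 0 and 2.52 CPM against 4.29, 0.868 and 4.40 CPM, and Cryab at 2.51, 1.54 and 3.02 CPM against 2.81, 1.88 and 2.64 CPM, so neither small heat shock protein gene separated the groups. In female 33 the Hspb1 value of 0 likewise allows up to 2.32 CPM, and the 1.54 CPM of Cryab rest on 2 counts.

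**Figure D1:**
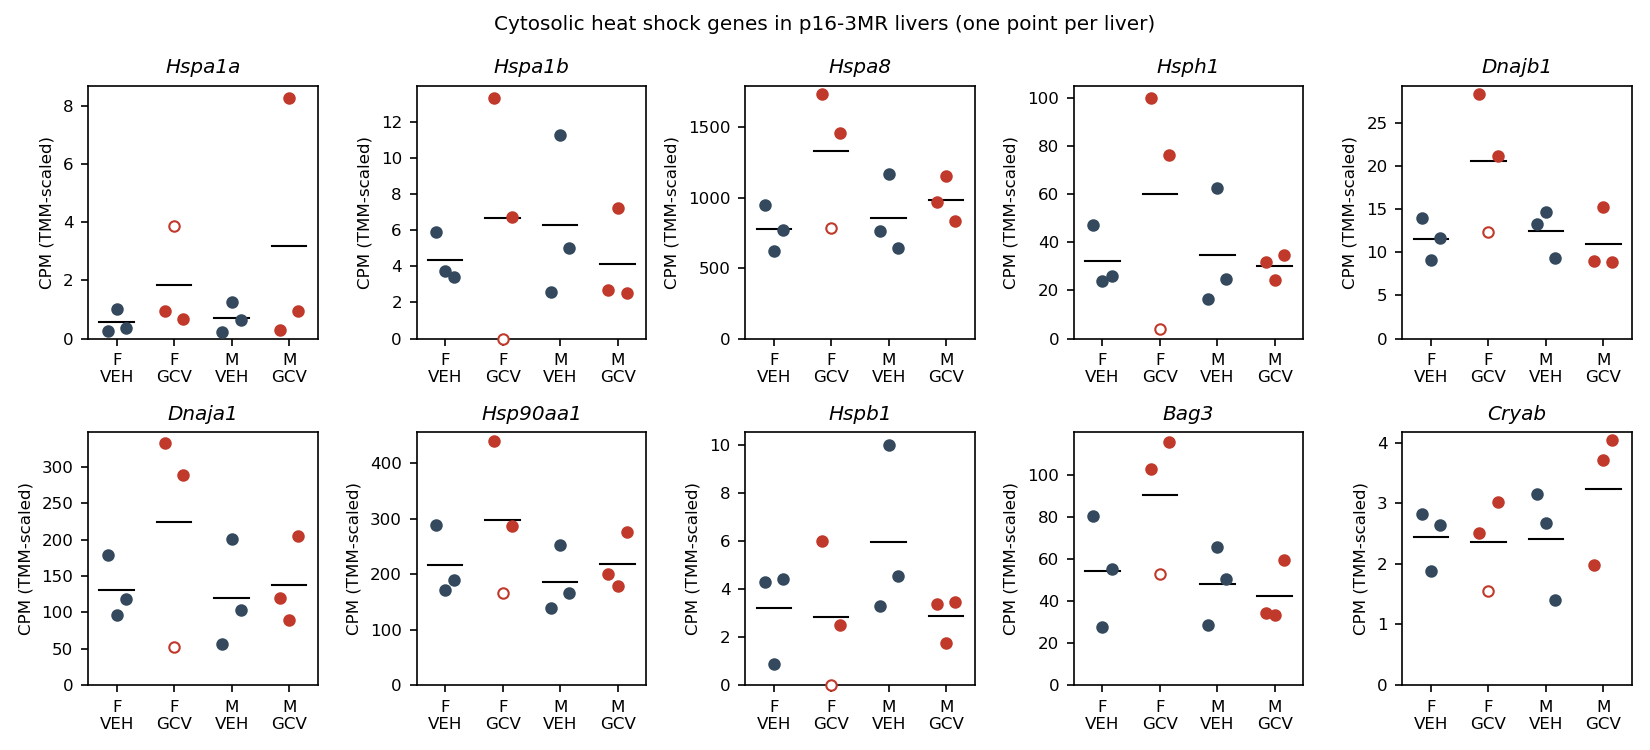
Level of each gene (CPM, TMM-scaled, linear axis from 0) in the 12 p16-3MR livers, 1 point per liver, VEH in blue-grey and GCV in red, with the mean of each group as a line; the open point is GCV-treated female 33. The 2 filled GCV female points lie above all 3 VEH females for Hsph1 (100.2 and 76.3 CPM), Dnajb1, Dnaja1, Hspa8, Bag3 and Hspa1b. The open point lies below all 3 VEH females for Hsph1, Dnaja1, Hspa1b, Hsp90aa1, Hspb1 and Cryab. For Hspb1 (0 counts) and Cryab (2 counts) this order is not resolved. A count of 3 equals 2.32 CPM in that liver, above VEH female 28 for both genes.

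With all 6 females, no member passed an adjusted p of 0.05 in edgeR's quasi-likelihood test (0% of the 21755 genes did), and 1 of 10 had an unadjusted p under 0.05, against 7.37% of all genes. DESeq2 also called 0 members at the adjusted threshold, with 2 at an unadjusted p under 0.05, against 8.44% of the genes it tested. The single gene was Dnajb1, with a log2 fold change of 0.85 (SE 0.38, unadjusted p = 0.0438, adjusted p = 0.667). The other log2 fold changes were 1.46 (SE 1.21) for Hspa1a, 0.92 (SE 0.74) for Hsph1, 0.78 (SE 0.63) for Dnaja1, 0.77 (SE 0.51) for Hspa8, 0.74 (SE 0.47) for Bag3, 0.71 (SE 0.82) for Hspa1b and 0.46 (SE 0.45) for Hsp90aa1. Cryab at 0.01 (SE 0.52) and Hspb1 at -0.02 (SE 0.83) were close to 0. The median over all genes was 0.

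Without female 33, Hsph1 had a log2 fold change of 1.39 (SE 0.49, unadjusted p = 0.0154), Dnaja1 of 1.19 (SE 0.51, unadjusted p = 0.0401) and Dnajb1 of 1.03 (SE 0.34, unadjusted p = 0.0113). Hspa8 stood at 0.97 (unadjusted p = 0.0538) and Bag3 at 0.95 (unadjusted p = 0.0588). The adjusted p was 0.842 for each of these 5, and 3 of 10 members were at an unadjusted p under 0.05, against 4.59% of all genes. The Hsp90aa1 value was 0.69 and that of Hspa1b 1.14, neither below an unadjusted p of 0.05. Hspa1a, Hspb1 and Cryab stood at 0.49, 0.34 and 0.11. With each of the livers left out in turn, the lowest log2 fold changes were 0.35 for Hsph1, 0.38 for Dnaja1 and 0.56 for Dnajb1. They were 0.53 for Hspa8, 0.37 for Bag3, 0.07 for Hsp90aa1, -0.14 for Hspa1b, -0.97 for Hspb1 and -0.20 for Cryab. Of the 10 genes, 6 had both remaining GCV females above all 3 VEH females and 0 had both below, where 12.9% and 11.2% of the 21755 genes did so. The ratio of mean CPM in those 6 ran from 2.01 for Bag3 to 2.73 for Hsph1.

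**Figure D2:**
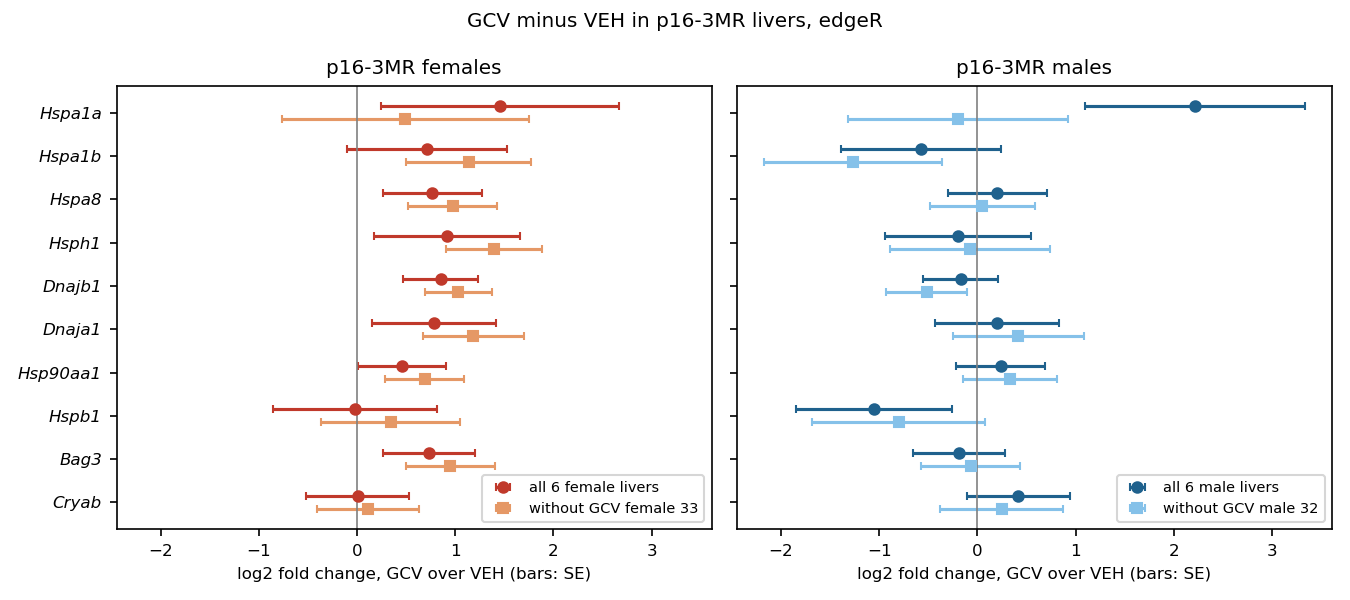
Log2 fold change of GCV over VEH for the 10 genes in p16-3MR females (left) and males (right), with bars for the standard error from edgeR; circles use all livers of the sex and squares leave out GCV female 33 or GCV male 32. In females the values of 8 of the 10 genes lie above 0.4 with all livers (0.46 for Hsp90aa1 to 1.46 for Hspa1a); in males Hspa1a moves from 2.21 to -0.20 when male 32 is left out.

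In males no member was shifted beyond the spread between livers. Hsph1 was at 31.7, 24.4 and 34.6 CPM in GCV-treated males 30, 32 and 34 and at 16.5, 62.7 and 24.9 CPM in VEH-treated males 24, 25 and 26. VEH male 25 exceeded the median of the 12 livers for all 10 genes, more than any GCV male. Hspa8 was at 971.4, 1153 and 835.2 CPM with GCV and at 764.0, 1166 and 639.1 CPM with VEH, and Dnajb1 at 9.02, 15.2 and 8.84 CPM against 13.3, 14.6 and 9.38 CPM. Dnaja1 stood at 120.1, 89.1 and 204.4 CPM against 56.7, 200.2 and 102.5 CPM, Hsp90aa1 at 200.4, 179.3 and 276.6 CPM against 138.7, 252.2 and 165.8 CPM, and Bag3 at 34.2, 33.3 and 59.4 CPM against 28.7, 65.4 and 50.3 CPM. The male groups overlapped for all 10 genes, again a description without the share of all genes. No member passed the adjusted threshold in males with edgeR or DESeq2 (0% of all genes in edgeR), and 0 of 10 had an unadjusted p under 0.05, where 1.91% of all genes did.

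Hspa1a had the largest fold change of the 10 in males, from 1 liver. Male 32 had 85 counts of Hspa1a, 8.29 CPM, while the other males had 2 to 7 counts and 0.233 to 1.25 CPM. The log2 fold change was 2.21 (SE 1.12, unadjusted p = 0.0688) and became -0.20 without male 32. The neighbouring Hspa1b was at 7.22 CPM in male 32, within the 2.57 to 11.3 CPM of the VEH males. In male 32 the summed level of 6 Kupffer cell markers was 3478 CPM, against 158.2 to 1747 CPM in the other males, that of 10 stellate cell markers was 1650 CPM against 200.7 to 615.8 CPM, and that of 5 hepatocyte markers was 24047 CPM against 38068 to 83763 CPM. The part of these cells in the Hspa1a value was not tested, and in bulk tissue fewer cells of a type and less RNA per cell cannot be told apart.

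The difference between the sexes in the GCV response was tested directly. No member passed the adjusted threshold with edgeR or DESeq2 (0% of all genes in edgeR), and 0 of 10 had an unadjusted p under 0.05, against 3.78% of all genes. Dnajb1 came nearest, its GCV response being 1.02 higher in females on the log2 scale (SE 0.54, unadjusted p = 0.0801). Without female 33, the differences were 1.59 for Hsph1 (SE 0.66, unadjusted p = 0.0346) and 1.21 for Dnajb1 (SE 0.47, unadjusted p = 0.0235), both at an adjusted p of 1. Without male 32, that of Dnajb1 was 1.31 (unadjusted p = 0.0327).

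VEH-treated p16-3MR females and males overlapped for all 10 members, a description given without the share of all genes. Log2 differences between females and males ran from -0.88 for Hspb1 (SE 0.79) to 0.22 for Hsp90aa1 (SE 0.45). With edgeR, 0 of 10 had an unadjusted p under 0.05 (0.12% of all genes passed the adjusted threshold and 2.74% the unadjusted one). DESeq2 likewise called 0 members. Averaged over both treatments, a comparison added after the data were seen, 0 of 10 members were called either way with edgeR or DESeq2 (0.303% and 7.05% of all genes in edgeR), with Bag3 nearest at 0.64 (SE 0.33, unadjusted p = 0.0738).

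The wild-type livers addressed GCV treatment in mice without the transgene, for the 5 identified genes. Hsp90aa1 was at 234.3, 254.0 and 325.5 CPM in GCV-treated females and 247.6, 165.5 and 189.3 CPM in VEH-treated females, an overlap by 1 liver. The log2 fold change was 0.43 (SE 0.19, unadjusted p = 0.0356, adjusted p = 1; unadjusted p = 0.190 without GCV female 6, 0.146 without VEH female 5 and 0.0892 without VEH female 6), and Hsp90aa1 was the only one of 5 with an unadjusted p under 0.05. Of all genes, 0.00791% passed the adjusted threshold, 0 members among them, and 4.56% the unadjusted one; DESeq2 called 0 members either way, with 2.93% of its genes under the unadjusted one. Hspa8 stayed between 847.6 and 858.3 CPM in the GCV females and between 702.1 and 958.2 CPM in the VEH females, with a log2 fold change of 0.04 (SE 0.15). Dnajb1 was at 16.3, 18.4 and 16.6 CPM with GCV and 20.3, 11.3 and 19.5 CPM with VEH, and Dnaja1 at 259.4, 303.8 and 245.3 CPM against 301.5, 198.9 and 221.0 CPM. For each of these 3 genes the GCV values lay inside or overlapped the VEH range. Hspa1a had at most 5 counts in any wild-type female.

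In wild-type males the higher levels with GCV were led by 1 liver. GCV-treated male 3 exceeded the median of the 12 wild-type livers for all 5 genes and was the highest of the 12 for each. Its Hspa1a level was 19.8 CPM from 65 counts, against 3.77 and 1.85 CPM in GCV males 1 and 2 and 2.40, 0.437 and 2.52 CPM in VEH males 1, 2 and 3. Its Hsp90aa1 level was 631.8 CPM, against 353.7 and 341.1 CPM in the other GCV males and 383.5, 330.1 and 298.9 CPM in the VEH males. Dnajb1 was at 27.7, 14.8 and 37.5 CPM with GCV and 17.8, 16.2 and 19.2 CPM with VEH, and Hspa8 at 871.2, 729.5 and 1314 CPM against 849.0, 807.7 and 799.6 CPM. GCV male 1 thus also lay above every VEH male for Hspa1a, Dnajb1 and Hspa8, but not for Hsp90aa1 or Dnaja1. Dnaja1 was at 273.5, 317.8 and 348.2 CPM with GCV and 264.3, 323.3 and 273.8 CPM with VEH. Among lists of other genes, male 3 had the highest sum of the 12 livers for the related heat shock proteins that could be identified, 1856 CPM against 1171 to 1430 CPM, and for the co-chaperones, 1079 CPM against 882.4 to 1048 CPM. It had the lowest for the clock and temperature genes, 79.4 CPM against 97.8 to 138.9 CPM. Ttr was the only hepatocyte marker that could be identified, and male 3 had the lowest hepatocyte value of the 6 males, 9734 CPM against 10067 to 11838 CPM. Of the other cell type markers that could be identified, its stellate cell markers (7 genes) had the highest sum among the 6 males, 294.8 CPM against 244.0 to 292.5 CPM. Its Kupffer cell markers (3 genes), 185.3 CPM, lay within the 122.5 to 189.5 CPM of the other males, and its lymphocyte markers (4 genes), 2.14 CPM, were below their 2.32 to 5.13 CPM. The part of these genes in the values of male 3 was not tested.

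With all 6 males, Hspa1a had a log2 fold change of 2.21 (SE 0.77, unadjusted p = 0.00927) and Dnajb1 of 0.56 (SE 0.26, unadjusted p = 0.0440), both at an adjusted p of 0.889. These were 2 of 5 members, against 5.06% of all genes at an unadjusted p under 0.05; 0% of genes passed the adjusted threshold in edgeR, and DESeq2 called 0 members there and 1 at an unadjusted p under 0.05. Without GCV male 3 the values fell to 0.62 for Hspa1a (unadjusted p = 0.480) and 0.23 for Dnajb1 (unadjusted p = 0.398), and Hsp90aa1 went from 0.39 to 0.04. The GCV response did not differ between wild-type females and males at either threshold for any of the 5 genes with edgeR or DESeq2 (0.00791% and 4.45% of all genes in edgeR).

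**Figure D3:**
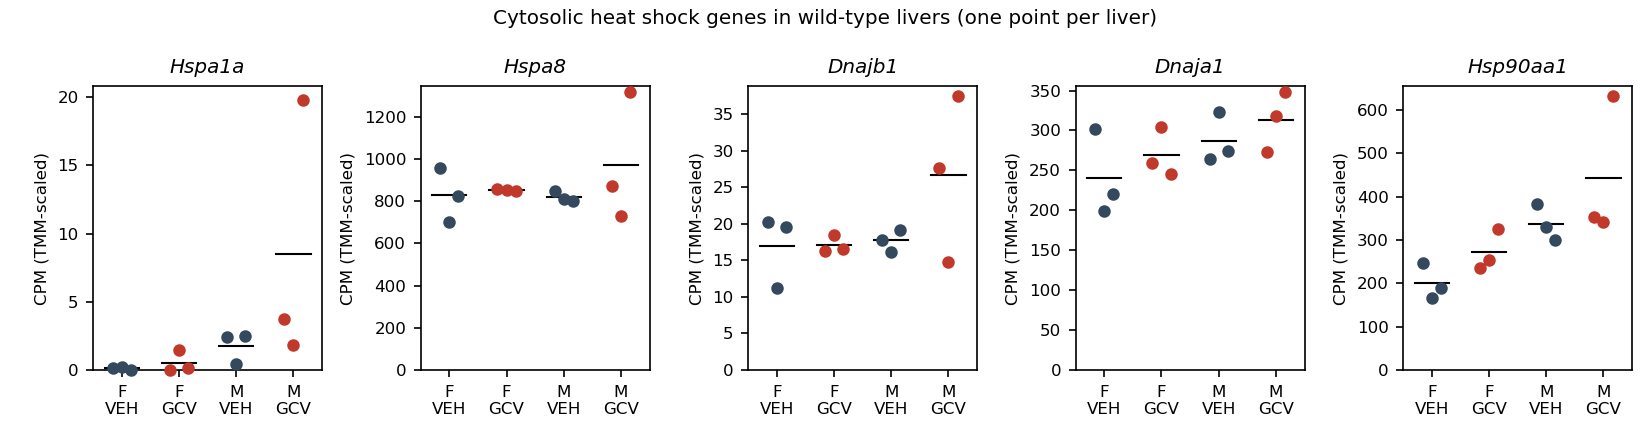
Level of the 5 genes with a label of their own (CPM, TMM-scaled, linear axis from 0) in the 12 wild-type livers, 1 point per liver, VEH in blue-grey and GCV in red, with group means as lines. GCV-treated male 3 is the highest point in every panel (19.8 CPM for Hspa1a, 631.8 CPM for Hsp90aa1), and all VEH females lie below all VEH males for Hspa1a and Hsp90aa1.

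With VEH alone, wild-type females had less Hsp90aa1 than wild-type males. The VEH females were at 247.6, 165.5 and 189.3 CPM and the VEH males at 383.5, 330.1 and 298.9 CPM, with no overlap. The log2 difference between females and males was -0.75 (SE 0.19, unadjusted p = 0.000909, adjusted p = 0.0300 with edgeR), and Hsp90aa1 was the only one of 5 members past the adjusted threshold, which 3.82% of all genes passed. DESeq2 gave an adjusted p of 0.0924, and leaving out 1 liver at a time gave log2 differences that stayed negative but an adjusted p above 0.05 without VEH female 5 (0.1495), VEH female 6 (0.105), VEH male 1 (0.0506) or VEH male 2 (0.0611).

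Hspa1a had few counts in either sex with VEH. There were 1, 1 and 0 in the females and 9, 2 and 13 in the males, and the males exceeded the females 13.0-fold relative to TMM-scaled library totals (95% exact binomial interval 3.22 to 113.2, counting error only). The edgeR difference had an unadjusted p of 0.0130 and an adjusted p of 0.166. These 2 genes made 2 of 5 at the unadjusted threshold, against 15.2% of all genes. Hspa8, Dnajb1 and Dnaja1 had log2 differences of 0.02, -0.05 and -0.25 with overlapping groups.

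All 6 females and all 6 males, compared after the data were seen, gave the same direction. Hsp90aa1 ran from 165.5 to 325.5 CPM in females and from 298.9 to 631.8 CPM in males, a log2 difference of -0.72 (SE 0.14, adjusted p = 0.00112 with edgeR). Hspa1a had 8 counts in the 6 females together and 110 in the 6 males, a 15.5-fold difference relative to TMM-scaled library totals (95% exact binomial interval 7.59 to 36.8, counting error only). GCV male 3 held 65 of the 110 counts, and without it the difference was 7.30-fold (interval 3.41 to 17.9, an alternative added after the data were seen). The edgeR log2 difference was -3.77 (SE 0.78, adjusted p = 0.00294) and became -2.96 without that liver (SE 0.74, adjusted p = 0.0154). These were 2 of 5 members at the adjusted threshold, against 7.94% of all genes, and 3 of 5 at the unadjusted one, against 20.1%, the third being Dnaja1 (-0.24, unadjusted p = 0.0269). VEH livers are part of both comparisons, so this one is not independent of the comparison of VEH livers.

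The genes moved together from liver to liver. In the p16-3MR table, 39 of 45 pairs of members were positively correlated over the 12 livers, with a median Pearson r of 0.46, where the median over all pairs of 12409 genes with a mean of at least 10 counts was 0.0132. Without the 2 livers farthest from the median of the first gene of each pair, the median r of the members was 0.39. With all 12 livers and the mean of each group subtracted, the median was 0.68, against 0.0152 for all genes. The median of these deviations was not taken with livers left out, so its dependence on single livers was not tested. Members share libraries, depth and scaling, and the livers of 1 table are 1 batch.

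Hsph1 and Dnaja1 formed one of the closest pairs, with r = 0.91 (two-sided permutation p = 1e-05, the smallest that 100000 permutations can give; adjusted p = 0.00045 over 45 pairs) and a Spearman rho of 0.97 (permutation p = 2e-05, adjusted p = 0.0009). The r was 0.94 without the 2 livers farthest from the median of Hsph1, GCV females 31 and 33. Dnaja1 and Hsp90aa1 had r = 0.93 (permutation p = 2e-05, adjusted p = 0.00045) and rho = 0.90 (permutation p = 0.00021, adjusted p = 0.00315), with r = 0.91 without GCV females 31 and 35. In all, 12 pairs passed an adjusted p of 0.05 by Pearson's r and 9 by Spearman's rho. For Hspa8 and Dnajb1, r went from 0.86 to 0.62 without GCV females 31 and 35, and the rho of 0.69 did not pass (permutation p = 0.0172, adjusted p = 0.0705). Hspa1a had r between -0.51 (Hspb1) and 0.17 (Hspa8) with the other members and no pair past the threshold. With its twin Hspa1b, whose upstream sequence is nearly the same, r was -0.18 (permutation p = 0.523, adjusted p = 0.604) and rho 0.27 (permutation p = 0.402, adjusted p = 0.573). Without GCV female 33 and GCV male 32, the livers farthest from the median of Hspa1a, r was 0.52 with Hspa1b, 0.51 with Dnaja1, 0.46 with Hsph1, 0.41 with Hsp90aa1, 0.28 with Bag3 and 0.07 with Hspb1, all negative before, and it was 0.25 with Hspa8, 0.17 with Dnajb1 and 0.0056 with Cryab.

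Among the 5 wild-type genes all 10 pairs were positive, with a median r of 0.68 against 0.0003 over pairs of the 8613 rows with a mean count of at least 10, and 6 passed an adjusted p of 0.05 by Pearson's r and 2 by Spearman's rho. The relation rested on few livers: without the 2 livers farthest from the median of the first gene, which always included GCV male 3, the median r was 0.05. Hspa8 and Dnajb1 went from 0.88 (permutation p = 0.0006, adjusted p = 0.00425; rho = 0.75, permutation p = 0.00704, adjusted p = 0.0352) to 0.52, and Hspa1a and Hsp90aa1 from 0.83 (permutation p = 0.00085, adjusted p = 0.00425; rho = 0.79, permutation p = 0.00296, adjusted p = 0.0296) to 0.62. Hspa8 and Hsp90aa1 turned from 0.67 to -0.27.

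**Figure D4:**
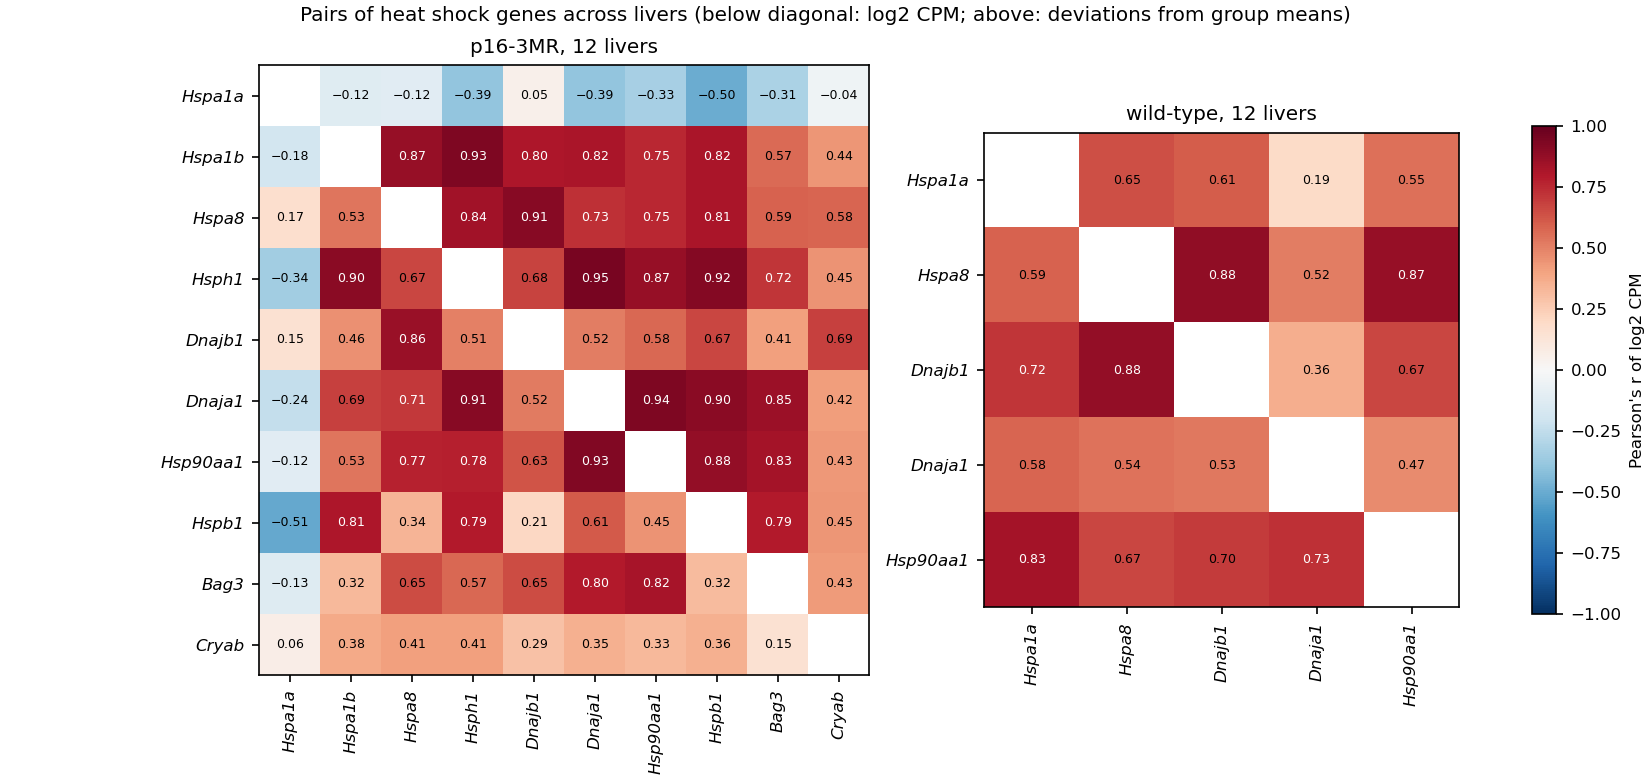
Pearson's r of log2 CPM for every pair of members over the 12 p16-3MR livers (left) and the 12 wild-type livers (right), with r of the values below the diagonal and r of the deviations from group means above it; colour runs from -1 (blue) to 1 (red). In the p16-3MR livers Hsph1 and Dnaja1 stand at 0.91 and Dnaja1 and Hsp90aa1 at 0.93, while Hspa1a lies between -0.51 and 0.17 with every other member.

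Outside the 10 genes, the 5 with the highest r to the mean of the members' standardized levels over the 12 p16-3MR livers were Tcp1, a subunit of the cytosolic chaperonin (0.91), Gm7899 (0.91), Ficd, an enzyme that modifies the endoplasmic reticulum chaperone BiP (0.90), Gm5575 (0.89) and Srprb, a subunit of the signal recognition particle receptor (0.88). Without female 33, a list made after the data were seen, they were Srm, Ficd, Pomgnt1, Cdk7 and Ddx49, at 0.90 to 0.93, so Ficd alone was in both lists. In the wild-type livers a row that may hold Hsph1 or Hephl1 came first (0.91), followed by Rtp3 (0.87), the Hsp90 co-chaperones Fkbp4 (0.87) and Stip1 (0.86), and Atpaf2 (0.86). Without the 2 farthest livers, the row that may hold Hsph1 was at 0.31, Fkbp4 at 0.39, Rtp3 at 0.51, Stip1 at 0.70 and Atpaf2 at 0.87. Given with no test, these values describe likeness over 12 livers only.

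Further genes of the chaperone network were compared between GCV- and VEH-treated p16-3MR females. None of the related heat shock protein genes (0 of 9), 1 of 18 co-chaperones, 0 of 4 regulators, 1 of 8 chaperonin subunits and 0 of 6 organellar chaperones had an unadjusted p under 0.05, and 0 passed the adjusted threshold with edgeR, where 7.37% of all genes were under the unadjusted one. The co-chaperone was Dnajb4 (0.64, SE 0.29, unadjusted p = 0.0426) and the chaperonin subunit Cct7 (1.04, SE 0.39, unadjusted p = 0.0180), both higher with GCV. Without liver 33, Cct7 was at 0.38 (unadjusted p = 0.158) and Dnajb4 at 0.67 (unadjusted p = 0.0293). Then 1 of 9 related heat shock proteins, Hspa2 (1.65, unadjusted p = 0.0175), was under the unadjusted threshold. So were 2 of 18 co-chaperones, Dnajb4 and Cacybp (0.66, unadjusted p = 0.0426), against 4.59% of all genes. The regulators, chaperonin subunits and organellar chaperones had 0 there, and 0 passed the adjusted threshold. Hsf1, which encodes the master regulator, was at 11.95, 28.6 and 6.54 CPM with GCV and 7.24, 6.51 and 8.18 CPM with VEH, a fold change of 1.04 (SE 0.49, unadjusted p = 0.0510) that was led by liver 33 and was 0.27 (unadjusted p = 0.495) without it. The median log2 fold change was 0.82 over the regulators, all 4 positive, 0.24 over the chaperonin subunits, 0.14 over the related heat shock proteins, 0.09 over the co-chaperones and -0.07 over the organellar chaperones, against 0.75 over the members and 0 over all genes. Without liver 33 the medians were 0.22, 0.31, 0.15, 0.24 and 0.25 in the same order, against 0.96 over the members and -0.04 over all genes. The summed levels of the organellar chaperones and of the co-chaperones placed GCV females 31 and 35 above all 3 VEH females and 33 below them: the organellar chaperones stood at 4368, 1637 and 4196 CPM in GCV females 31, 33 and 35 and at 2604 to 3440 CPM with VEH, and the co-chaperones at 1155, 475.0 and 1229 CPM against 820.3 to 1124 CPM. The chaperonin subunits summed to 759.8, 689.0 and 805.5 CPM against 588.6 to 693.8 CPM. The related heat shock proteins stood at 1156, 599.4 and 1179 CPM against 860.5 to 1199 CPM, with females 31 and 35 inside the VEH range. The regulators stood at 100.1, 101.2 and 69.9 CPM against 57.9 to 71.4 CPM, with female 35 inside that range and female 33 highest. In males 0 of the 45 genes of these 5 lists had an unadjusted p under 0.05, against 1.91% of all genes. For the response difference 1 of 45 did, Hsf2 (1.34, SE 0.56, unadjusted p = 0.0308), against 3.78% of all genes. In females without liver 33, the log2 fold change of Hsf2 with GCV was 0.16 (unadjusted p = 0.646).

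Genes of the circadian clock and of temperature response were read in the same comparison. In p16-3MR females 6 of 13 were higher and 2 lower with GCV at an unadjusted p under 0.05, against 7.37% of all genes in either direction, and 0 passed the adjusted threshold with edgeR. Dbp, a clock output factor, was at 0.964, 61.0 and 100.5 CPM in GCV females 31, 33 and 35 and 0.938, 2.46 and 1.51 CPM in the VEH females (log2 fold change 5.04, SE 1.45, unadjusted p = 0.00376). Per3 was 2.79 higher (SE 0.76, unadjusted p = 0.00267) and Per2 1.92 higher (SE 0.58, unadjusted p = 0.00546), both repressors of the clock loop, while the activator Arntl was 1.87 lower (log2 fold change -1.87, SE 0.70, unadjusted p = 0.0186). Without female 33, 4 of 13 were higher and 1 lower at that threshold, and Dbp stood at 4.89 (SE 1.59, unadjusted p = 0.0102). Female 31, highest of the 12 livers for Hsph1, Dnaja1, Hspa8 and Hsp90aa1, had Dbp within the VEH range, and female 35 had both high chaperone and high Dbp levels. Time of collection was not given in the sources used here, and the part of the clock in the chaperone values was not tested.

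Immediate early genes, which respond within minutes to stimuli including tissue handling, were higher with GCV in 4 of 12 cases at an unadjusted p under 0.05, against 7.37% of all genes in either direction, and 0 passed the adjusted threshold with edgeR. Jun was at 39.3, 86.5 and 13.8 CPM with GCV and 8.04, 13.6 and 8.81 CPM with VEH (log2 fold change 2.17, SE 0.68, unadjusted p = 0.00661). Ier2 was 1.83 higher (SE 0.59, unadjusted p = 0.00801). The highest value of each lay in female 33, the liver with the lowest Hsph1. Without it Jun was at 1.32 (SE 0.65, unadjusted p = 0.0662) and Ier2 at 0.48 (unadjusted p = 0.184), and 0 of 12 had an unadjusted p under 0.05. Their part in the chaperone values was not tested.

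Markers of other liver cells were read in the same groups, where none passed the adjusted threshold with edgeR and 7.37% of all genes had an unadjusted p under 0.05. All 6 Kupffer cell markers had negative fold changes with GCV in p16-3MR females, 1 of them at an unadjusted p under 0.05, and their summed level ran from 106.5 to 326.6 CPM with GCV and 310.3 to 822.2 CPM with VEH, with overlap. Of 7 lymphocyte markers 6 were negative, 3 at an unadjusted p under 0.05, with sums of 3.28 to 18.4 CPM against 14.7 to 69.2 CPM. None of the Kupffer markers was at 0 in any p16-3MR liver, and of the lymphocyte markers only Nkg7 was, in VEH female 27 and VEH male 26. The 10 stellate cell markers summed to 269.6 to 359.2 CPM with GCV and 360.4 to 419.2 CPM with VEH, without overlap, with 6 of 10 negative and 0 at an unadjusted p under 0.05. Of 6 endothelial markers 4 were negative, 1 at an unadjusted p under 0.05, with sums of 83.5 to 169.2 CPM and 93.1 to 197.5 CPM. Of 5 cholangiocyte markers 4 were positive, 1 at an unadjusted p under 0.05, with sums of 36.6 to 142.1 CPM and 34.7 to 98.0 CPM. The 5 hepatocyte markers summed to 93005 to 154679 CPM and 83591 to 109424 CPM, with 0 of 5 at an unadjusted p under 0.05. Without liver 33, 0 of 6 Kupffer, 3 of 7 lymphocyte and 2 of 6 endothelial markers were lower at an unadjusted p under 0.05, against 4.59% of all genes. The 2 endothelial markers were Stab2 (-1.49) and Kdr (-0.88), and all 6 were then negative. Of the cholangiocyte, stellate and hepatocyte markers 0 were under that threshold, and none of any list passed the adjusted one. The part of cell makeup in the chaperone values was not tested.

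The wild-type livers held fewer readable genes of the network. Of the 18 co-chaperones, the labels of St13, Ptges3, Bag1 and Bag2 each fit several symbols, so these genes could not be read there. All the others could be read, and counts over so few genes are a description. With GCV in females, 0 of 4 related heat shock proteins and 0 readable co-chaperones had an unadjusted p under 0.05, against 4.56% of all genes. In males 0 of 4 related heat shock proteins and 1 co-chaperone did, against 5.06% of all genes. The one was the Hsp70-Hsp90 linker Stip1 (0.38, SE 0.15, unadjusted p = 0.0230). Between VEH females and males, most of the readable co-chaperones had a negative difference, where 52.2% of all genes had a positive one. At the unadjusted threshold were 3 co-chaperones, against 15.2% of all genes: Dnaja2 (-0.33, unadjusted p = 0.0352), Ahsa1 (-0.29, unadjusted p = 0.0280) and Cacybp (-0.39, unadjusted p = 0.0412). None passed the adjusted threshold with edgeR. Ahsa1 activates the ATPase of Hsp90. The endoplasmic reticulum Hsp90, Hsp90b1, had a difference of the same sign as the cytosolic Hsp90aa1 (-0.44, SE 0.14, unadjusted p = 0.00474, adjusted p = 0.0907), and the constitutive Hsp90ab1 was at 1092 to 1137 CPM in VEH females and 1246 to 1292 CPM in VEH males (-0.19, SE 0.11, unadjusted p = 0.110). The median over the co-chaperones read there was -0.18, against 0.02 over all genes.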

How the data were processed

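Total liver RNA was sequenced by Smart-3SEQ. Per the labels and the study's methods, the authors trimmed reads with Trim Galore 0.6.10, checked them with FastQC 0.11.9, quantified them with Salmon 1.10.3 against mm10, summed transcripts to genes with tximport and removed genes with fewer than 3 reads; the deposited values are estimated counts, held as whole numbers. Whether counting used strand or molecular identifiers is not given in the sources used here. Ensembl identifiers were matched to symbols for 21698 of 21755 rows; wild-type labels were used only where 1 symbol fitted (10496 of 12643 rows, with 2067 fitting several and 80 none).

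Each table was fitted apart in edgeR 4.0.16 (R 4.3.3) with TMM scaling, 1 mean per group of 3 livers, quasi-likelihood tests and Benjamini-Hochberg adjustment over all its genes; the threshold was 0.05. Levels are TMM-scaled CPM, and correlations used log2 CPM with a prior count of 2 and 100000 two-sided permutations. Labels name separate mice as replicates. The alternatives were DESeq2 1.42.0, its size factors, limma-voom 3.58.1 with sample weights, no mitochondrial genes, a filter on low counts, the 6 livers of a contrast alone, each liver left out, Hspa1a and Hspa1b summed, and a replicate block. Scripts were tested on simulated data. No 2 libraries of a group agreed within counting noise. Named genes were all 10 members, up to 4 genes per further list and comparison by smallest p under 0.05, and the 5 genes most like the members; Hsf1, Hsp90ab1, values per liver, and the further lists without female 33 were chosen after the data were seen. Members and lists were chosen with earlier results of these data known.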

Additional observations from a re-analysis of the deposited data

How the results depend on the processing

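Across 1335 alternative values of members, 1248 kept their direction and side of an unadjusted p of 0.05 or moved by less than 1 standard error, 40 newly passed, 29 no longer passed, 18 moved further and 0 passed in the opposite direction. The number of members at an unadjusted p under 0.05 changed in most comparisons, and the cause was not tested. For GCV in p16-3MR females it was 1, and became 2 with DESeq2 (8.44% of all genes under that threshold, against 7.37%), 3 with limma-voom (11.8%), 0 without mitochondrial genes (6.95%), 0 with the 6 female livers alone (7.35%) and 0 to 3 with 1 liver left out (4.29% to 12.4%). In p16-3MR males it went from 0 to 1 with limma-voom (23.1% of all genes) and 0 to 1 with 1 liver left out. For the response difference it went from 0 to 3 with limma-voom (15.5%) and 0 to 2 with 1 liver left out, and for VEH females and males from 0 to 1 with limma-voom (10.6%). Over both treatments it went from 0 to 2 with limma-voom (12%) and 0 to 2 with 1 liver left out.

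In wild-type females it was 1, and became 0 with DESeq2 (2.93%), 0 with the filter on low counts (4.87%) and 0 to 2 with 1 liver left out. In wild-type males it was 2, and became 1 with DESeq2 (3.28%), 1 with limma-voom (8.81%), 0 with the filter (5.68%), which removes Hspa1a, and 0 to 4 with 1 liver left out. The wild-type response difference had 0, and 0 to 1 with 1 liver left out, and VEH females against males had 2, and 1 with the filter (19.1%), 3 with limma-voom (18.2%) and 2 to 3 with 1 liver left out. The log2 difference of Hsp90aa1 in VEH livers, -0.75, was -0.76 with DESeq2 (adjusted p = 0.0924), -0.75 with the filter (adjusted p = 0.0505) and -0.93 to -0.63 with 1 liver left out.

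Replicate numbers are shared between GCV and VEH in wild-type mice only, and the labels do not say whether they pair the livers. Same-number deviations correlated at -0.07 to 0.28, and those of different numbers at -0.35 to 0.17. So few pairs cannot decide whether the livers were paired. With the replicate block, 4 members had an unadjusted p under 0.05 in wild-type males (6.55% of all genes), Hsp90aa1 in females had an adjusted p of 0.0403, and 106 and 68 genes were called in females and males, against 1 and 0. Genes at an adjusted p under 0.05 in p16-3MR females numbered 0 with edgeR, 90 with DESeq2 and 7 with limma-voom, and in males 0, 5 and 145. Hspa1a and Hspa1b summed gave 0.84 in p16-3MR females (unadjusted p = 0.250). Low counts limit Hspa1a, Hspb1 and Cryab, and 3 livers per group limit all genes.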
